A study of Homo sapiens with 6 samples.

Results

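The cyclin-dependent kinase (CDK) inhibitors of the CIP and INK4 families were examined in SKOV3 cells, a human ovarian cancer cell line, after knockdown of EIF5A2. The members were taken by gene symbol, and earlier results of these data were known when they were chosen. They were CDKN1A, CDKN1B and CDKN1C of the CIP family and CDKN2A, CDKN2B, CDKN2C and CDKN2D of the INK4 family, 7 of the 58825 genes in the table. SKOV3 cells were transfected with an siRNA against EIF5A2 (si-EIF5A2, 3 libraries, also called knockdown libraries) or with a control siRNA (NC, 3 libraries). By the description of the series the transfection lasted 48 h, and mRNA was then sequenced. Both groups were the same line under transient transfection, so an effect of the EIF5A2 siRNA on other transcripts cannot be told apart from the loss of EIF5A2. Nothing in the labels says that the 3 libraries of a group came from separate cultures, and the p-values then measure only the spread between these libraries.

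CDK inhibitors are small proteins that hold the cell cycle back. INK4 proteins bind CDK4 and CDK6 and keep them from pairing with D-type cyclins. CIP proteins bind, among others, complexes of CDK2 and CDK1 with cyclins E, A and B, and p21, the product of CDKN1A, also binds the replication clamp PCNA. Many cancers lose an inhibitor, most often through the CDKN2A and CDKN2B genes that lie side by side on chromosome 9. The amount of p21 and p27 protein is set largely by ubiquitin ligases, which RNA counts do not show.

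The deposited values were estimated counts per gene, with library totals of 46900204 to 74142267. Low values tended to lie near multiples of about 3.86 counts, which may be what 1 fragment is worth. The tendency was weak, with a mean cosine of 0.168 to 0.203 per library where exact multiples would give 1, so the number of fragments behind a library is known only roughly. Levels are given as CPM, the usual counts scaled to library size (here after TMM scaling), and levels of different genes are compared only as CPM per kilobase of exon. EIF5A2, the targeted gene, had 27.8, 29.8 and 29.9 CPM in the NC libraries and 2.76, 4.04 and 4.27 CPM in the knockdown libraries, lower in the group labelled as knockdown. All 7 markers listed for this line were tested, 3 of them (KRT7, PAX8 and KRT8) fell, and KRT8, KRT18, KRT7 and PAX8 lay at 61.0 CPM or above in both group means. ERBB2 had 45.9 ± 2.30 CPM in NC and 45.4 ± 2.98 CPM after knockdown (SD, n = 3 each). Per kilobase of exon, the NC mean of ERBB2 was 4.45 CPM per kb. That was lower than PAX8 (14.3), KRT8 (88.4), KRT7 (93.4) and KRT18 (130) by the same measure. KRT19 and EPCAM were low, at 3.22 and 1.55 CPM in NC. Of 8 markers of other cells, 4 were tested and none was called. CD68, a leukocyte marker, had 46.3 ± 9.57 CPM in NC and 39.1 ± 14.3 CPM after knockdown, and PECAM1 of endothelium had 1.87 ± 0.226 and 0.318 ± 0.335 CPM (SD, n = 3 each). PTPRC and CD3E of leukocytes were at 0 in every library, and the other 4 markers lay at 1.30 CPM or lower in both group means. PECAM1 passed the call rule given next with DESeq2 (adjusted p = 0.014), with counts divided by 3.86 and without si-EIF5A2 replicate 1, and CD68 passed it without si-EIF5A2 replicate 3 (log2 fold change -0.59). Their part in the results was not tested. Here a gene was called when its adjusted p was under 0.05 (edgeR, quasi-likelihood F test, Benjamini-Hochberg over 16208 genes) and its fold change exceeded 1.5. In a bulk sample, fewer cells with a transcript and less of it per cell cannot be told apart.

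After EIF5A2 knockdown, 2 of the 7 inhibitor genes were downregulated and none was called upregulated. CDKN2C of the INK4 family fell 4.20-fold and CDKN1C of the CIP family fell 2.59-fold. CDKN1A and CDKN1B, the most abundant members, were not called, nor was CDKN2D, whose value depended on 1 library. CDKN2A and CDKN2B were at or below the detection limit in every library. The 2 called genes were 2 of the 5 members that passed the filter on low counts, and 24.6% of all genes tested were called in either direction and 13.6% in the downward direction. With no limit on the fold change the same 2 members passed, against 36.9% of all genes, and with the threshold of the methods, an unadjusted p under 0.05 and a fold change over 2, both passed as well, against 14.6%. The share called upward was 11.1%. The lists and members were chosen with earlier results of these data known.

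Sequence in front of 3 members is shown because their transcripts give the contrast described next, a large fall for CDKN2C, a value that depended on 1 library for CDKN2D and a high level with no call for CDKN1A. The bases are RefSeq reference sequence (GRCh38.p14), written 5′ to 3′ on the strand of the gene, within the 250 bases before an annotated start and outside every annotated exon of that gene. Capitals mark GGGCGG (the GC box, read on both strands) and CCAAT. The CDKN2C window is chr1:50960495-50960744 on the plus strand, the CDKN2D window is chr19:10569060-10569229 on the minus strand and the CDKN1A window is chr6:36678464-36678657 on the plus strand.
CDKN2C: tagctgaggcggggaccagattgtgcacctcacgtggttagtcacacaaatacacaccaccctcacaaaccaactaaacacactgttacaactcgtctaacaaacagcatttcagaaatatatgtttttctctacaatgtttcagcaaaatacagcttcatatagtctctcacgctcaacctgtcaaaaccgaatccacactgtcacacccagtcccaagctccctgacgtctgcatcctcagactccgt
CDKN2D: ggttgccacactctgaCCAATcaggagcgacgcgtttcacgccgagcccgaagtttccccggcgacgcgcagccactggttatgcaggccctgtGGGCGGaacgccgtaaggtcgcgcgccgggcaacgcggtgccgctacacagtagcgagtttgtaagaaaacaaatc
CDKN1A: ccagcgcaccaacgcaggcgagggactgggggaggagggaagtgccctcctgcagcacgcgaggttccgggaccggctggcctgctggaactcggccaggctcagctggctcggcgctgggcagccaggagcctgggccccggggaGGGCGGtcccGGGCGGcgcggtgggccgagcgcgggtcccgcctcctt

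RefSeq gave 9 start windows for 6 of the 7 members and none for CDKN1C. Each window of 250 bases was searched on both strands for the E2F words TTTGGCGC, TTTGCCGC, TTTCCCGC and TTTCGCGC. The CHR word was TTTGAA or the variant form TTCGAA. The other words were the CCAAT box, the GC box written above, and the TATA word TATAAA. No E2F, CHR or TATAAA word was found in any of the 9 windows, and such words occurred in 2.79%, 14.3% and 10.7% of all 35116 promoter windows. CCAAT, present in 32.0% of them, occurred 2 times in front of CDKN1B and 1 time each in front of CDKN2D and the most downstream start of CDKN2C. GGGCGG, present in 42.6%, occurred 4 times in front of CDKN1A, with 2 of these matches overlapping, and 5 times in front of the GC-rich middle start of CDKN2C, where again 2 overlapped. It also occurred 2 times each in front of CDKN2B and CDKN2D. CDKN1B, the downstream start of CDKN2A and the most downstream start of CDKN2C had it 1 time each. The most upstream CDKN2C window held none of these words. Which start the cells used was not measured.

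CDKN2C encodes p18, an INK4 inhibitor of CDK4 and CDK6. It lies on the plus strand of chromosome 1 from 50960745 to 50974633 (GENCODE release 29, GRCh38). The NC libraries had 13.7, 12.2 and 11.3 CPM and the knockdown libraries had 2.48, 3.64 and 2.73 CPM. No knockdown library reached the NC range. The mean fell from 12.4 ± 1.22 to 2.95 ± 0.609 CPM (SD, n = 3 each), so 23.8% of the NC level was left. On the log2 scale the change was -2.07 (SE 0.19; edgeR adjusted p = 1.08e-04). In size this change ranked at percentile 95.7 of all genes tested.

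CDKN1C encodes p57, the CIP inhibitor whose gene is imprinted and active mainly from the maternal copy. The gene spans 2883213 to 2885773 of chromosome 11 (minus strand). CDKN1C had 12.5, 11.3 and 9.21 CPM in the NC libraries and 4.50, 3.60 and 4.61 CPM in the knockdown libraries. The lowest NC library still lay well above the highest knockdown library. The mean fell from 10.98 ± 1.64 to 4.24 ± 0.552 CPM (SD, n = 3 each), which left 38.6% of the NC level. Its log2 fold change was -1.37 (SE 0.18, adjusted p = 5.85e-04 in edgeR). The nearest tested genes, KCNQ1OT1, the imprinted noncoding RNA of this cluster, and SLC22A18AS, had log2 fold changes of 0.19 and 0.16 at levels near 1 CPM or lower, and neither was called.

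CDKN1A encodes p21, the inhibitor known for its rise under DNA damage and other stress. The gene lies on the plus strand of chromosome 6 from 36676460 to 36687339. Its level was 986, 850 and 799 CPM in the NC libraries and 1009, 1068 and 993 CPM in the knockdown libraries. All 3 si-EIF5A2 libraries lay above all 3 NC libraries, but NC replicate 1 came close to the lowest of them. Such a separation was common, since the groups did not overlap in 51.2% of all genes tested. The means were 878 ± 96.8 and 1023 ± 39.4 CPM (SD, n = 3 each). The log2 fold change was 0.22 (SE 0.09, adjusted p = 0.0938 in edgeR), with an unadjusted 95% interval of 0.012 to 0.43 on the log2 scale, which stays below the 1.5-fold limit of 0.58. Without NC replicate 1 the log2 fold change was 0.31 and the adjusted p 0.0214 in edgeR, still below 1.5-fold. The antisense RNA DINOL overlaps CDKN1A by 146 exon bases and had 14 counts over the 6 libraries.

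CDKN1B encodes p27 and lies on the plus strand of chromosome 12 from 12715058 to 12722371. It had 71.0, 69.1 and 66.8 CPM in the NC libraries and 70.7, 62.4 and 66.1 CPM in the knockdown libraries. The groups overlapped, with 1 knockdown library inside the NC range and the other 2 just below it. The log2 fold change was -0.05 (SE 0.08, adjusted p = 0.649 in edgeR), and its unadjusted 95% interval ran from -0.24 to 0.13. A change of 1.5-fold in either direction is outside that interval. Both tested neighbours of CDKN1B were downregulated from low levels. APOLD1, 3546 bases downstream, fell from 3.81 ± 1.10 to 0.980 ± 0.435 CPM (SD, n = 3 each). GPR19, an orphan receptor gene, had 0.603 to 0.723 CPM in the NC libraries and 0 in all 3 si-EIF5A2 libraries.

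CDKN2D encodes p19, and it was the other INK4 gene whose mRNA was detected here. The gene spans 10566462 to 10569059 of chromosome 19 (minus strand). The NC libraries had 11.3, 11.8 and 12.4 CPM, while the knockdown libraries had 9.41, 1.26 and 8.36 CPM. The groups did not overlap, and si-EIF5A2 replicate 2 stood far below the other two. The estimated counts were 481, 66 and 401 in the knockdown libraries. The log2 fold change of -0.90 had a SE of 0.70 (adjusted p = 0.385 in edgeR), and without si-EIF5A2 replicate 2 it was -0.41 with a SE of 0.14 and an adjusted p of 0.0628 from the same test. KRI1, which lies 425 bases away on the same strand, had 38.2, 37.8 and 37.0 CPM in the same 3 libraries and showed no such drop. By a looser limit than the drop of CDKN2D, under 33.3% of both other libraries of the group, 24 to 36 of 10389 genes per library stood low, and 31 in si-EIF5A2 replicate 2. Why CDKN2D was low in that library was not tested.

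**Figure D1:**
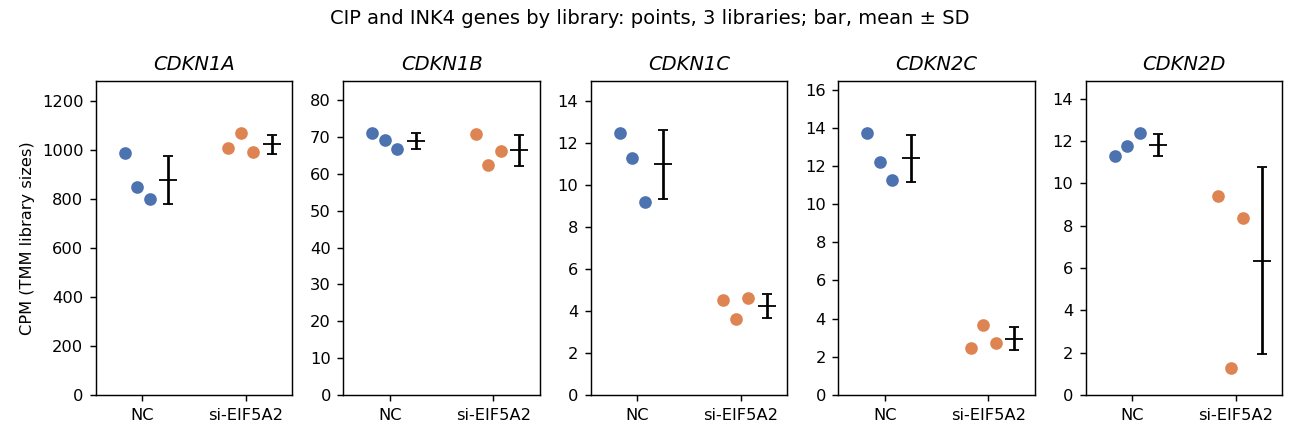
CPM on the vertical axis for the 5 detected members in each NC (blue) and si-EIF5A2 (orange) library, with the group mean ± SD as a black bar. CDKN1C and CDKN2C separate widely, CDKN1B overlaps, and 1 si-EIF5A2 library of CDKN2D sits at 1.26 CPM.

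CDKN2A encodes p16 and, from another first exon, the unrelated protein ARF, and CDKN2B encodes p15, the inhibitor known for its induction by TGF-beta. Counts per gene do not separate p16 from ARF. CDKN2A, spanning 21967753 to 21995301 of chromosome 9 (minus strand), had 0 counts in all 3 NC libraries and 4, 4 and 0 counts in the knockdown libraries. At 3.86 counts to a fragment, those values would be about 1 fragment each. CDKN2B, from 22002903 to 22009363, had 0 counts in all 6 libraries. A count of 0 allows up to 3 fragments, which at the same rate is 0.156 to 0.247 CPM depending on the library, a limit that covers counting error only. Neither gene passed the filter, no change could be detected in them at this depth, and both are left out of every test.

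The absence of counts was not limited to the inhibitor genes. Between MTAP, which encodes a methionine salvage enzyme that most cells use, and DMRTA1, 16 annotated genes span 653 kb, and 14 of them had 0 counts in every library. MTAP itself had 8 counts in all, 3 in NC replicate 2 and 5 in si-EIF5A2 replicate 2. The antisense RNA CDKN2B-AS1, which overlaps CDKN2A by 341 exon bases, was at 0. The nearest tested genes outside were KLHL9, 632373 bases to the left of CDKN2A, with 47.4 ± 1.57 CPM with the control siRNA and 62.6 ± 1.72 CPM after knockdown (SD, n = 3 each), and CLIC4P1, a pseudogene 752399 bases to the right, with 3.92 ± 1.44 and 3.17 ± 0.343 CPM. Only 2 of the 16 genes had any counts, MTAP and CDKN2A, each with a total of 8 over the 6 libraries. MTAP had them in both groups and CDKN2A in 1 group, below the limit of 3 fragments per library. The DNA of this region was not measured.

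**Figure D2:**
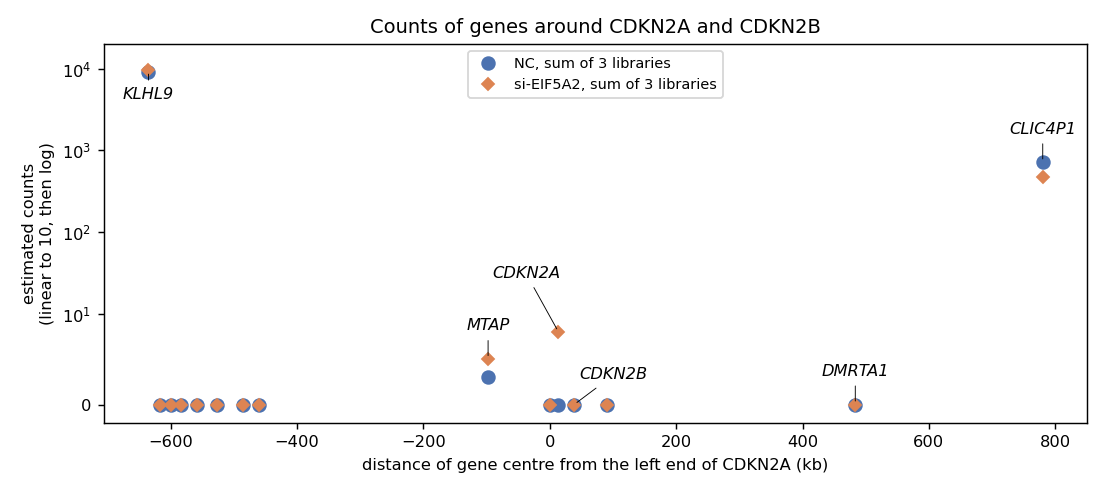
Estimated counts summed over the 3 libraries of a group, on an axis that is linear to 10 and logarithmic above, for named coding and antisense genes, MIR31HG and CLIC4P1, against the distance of each gene's centre from the left end of CDKN2A in kb. KLHL9 and CLIC4P1 carry counts at the sides, and the named genes from MTAP to DMRTA1 hold 8 counts or fewer over the 6 libraries.

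Per kilobase of exon, the order of levels in NC was CDKN1A, CDKN1B, CDKN2D, CDKN1C and CDKN2C. CDKN1A had 288 ± 31.7 CPM per kb (SD, n = 3), higher than 99.0% of the 16176 tested genes with a length. CDKN1B followed with 24.5 ± 0.747 and CDKN2D with 7.86 ± 0.351 CPM per kb. CDKN1C and CDKN2C, with 4.43 ± 0.663 and 3.74 ± 0.369 CPM per kb, had ranges that overlapped, although CDKN1C was above CDKN2C in each of the 3 NC libraries. In si-EIF5A2 libraries CDKN1A (336 ± 12.9 CPM per kb) and CDKN1B (23.6 ± 1.49 CPM per kb) kept the first places and did not overlap, CDKN1C (1.71 ± 0.223 CPM per kb) lay above CDKN2C (0.890 ± 0.183 CPM per kb), and CDKN2D ranged from 0.841 to 6.26 CPM per kb, across both. CDKN1A thus made up 87.0% to 88.5% of the summed per-kilobase level of the 7 genes in the NC libraries and 90.7% to 93.2% in the knockdown libraries. CDKN2C made up 1.13% to 1.15% in NC and 0.205% to 0.292% in si-EIF5A2.

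The levels of the kinases and cyclins that the inhibitors bind moved as well. Of 5 INK4 partners, 4 were tested and 3 (75%) were called, all downregulated, against 24.6% of all genes tested called in either direction. CDK4 fell with a log2 fold change of -2.14, CCND3 with -1.05 and CCND1 with -0.78 from 1425 ± 84.5 to 831 ± 50.4 CPM (SD, n = 3 each). CDK6 was not called, with a log2 fold change of -0.30 (adjusted p = 0.159 in edgeR). CCND2 was near 0 in both groups. All 9 CIP partners were called, 8 downregulated and 1 upregulated. The fall was largest for CCNA2, which encodes cyclin A2 of S and G2 phase, from 85.1 ± 12.2 to 7.72 ± 1.17 CPM (SD, n = 3 each), followed by CCNB2 and CCNB1. CCNE1, which encodes the cyclin E1 that drives CDK2 at the start of S phase, rose from 8.15 ± 0.109 to 28.1 ± 1.88 CPM (SD, n = 3 each; log2 change 1.78). Its sister gene CCNE2 fell with a log2 fold change of -2.59, so that the 2 cyclin E genes changed in opposite directions.

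**Figure D3:**
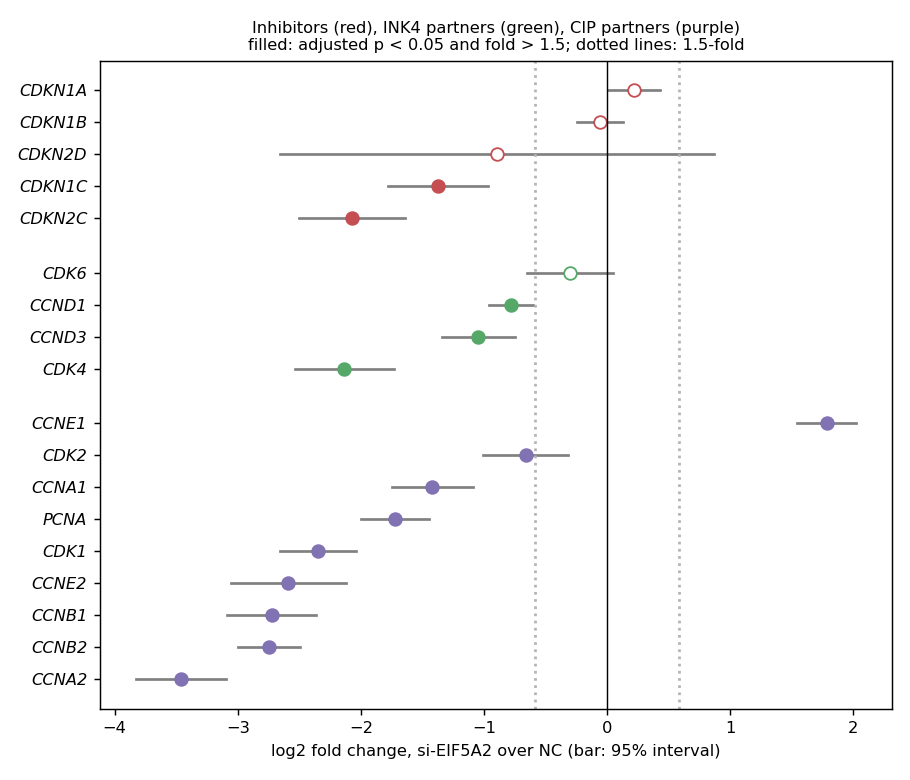
Log2 fold change of si-EIF5A2 over NC on the horizontal axis, with unadjusted 95% intervals, for the tested inhibitors and their partners. Filled points passed the call rule; CDKN1A and CDKN1B lie near 0 while all partners except CCNE1 lie below it.

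Because inhibitors and targets both changed, the summed per-kilobase level of each family was divided by that of its kinases in every library. For INK4 genes over CDK4 plus CDK6, the ratio was 0.0889, 0.0914 and 0.135 in NC and 0.253, 0.0646 and 0.221 after knockdown. The groups overlapped, since si-EIF5A2 replicate 2, the library with little CDKN2D, lay below all NC libraries. The INK4 mRNA ratio was 1.71 times the NC value with all libraries, 2.26 times without that one and 1.36 times without si-EIF5A2 replicate 1, and 1.19 times when levels were not divided by length. For CIP genes over CDK1 plus CDK2, the ratio was 19.8, 14.6 and 14.6 in NC and 54.2, 53.4 and 56.4 after knockdown. Every si-EIF5A2 library was above every NC library, and the mean rose from 16.4 ± 3.00 to 54.7 ± 1.53 (SD, n = 3 each), 3.34 times the NC value. CDKN1A dominated the numerator, and the change in the ratio came with the fall of CDK1 (log2 fold change -2.35) and CDK2 (-0.66). CDK2 was not called without NC replicate 2, at -0.49 on the log2 scale. These are ratios of mRNA, not of protein, and carry no test.

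**Figure D4:**
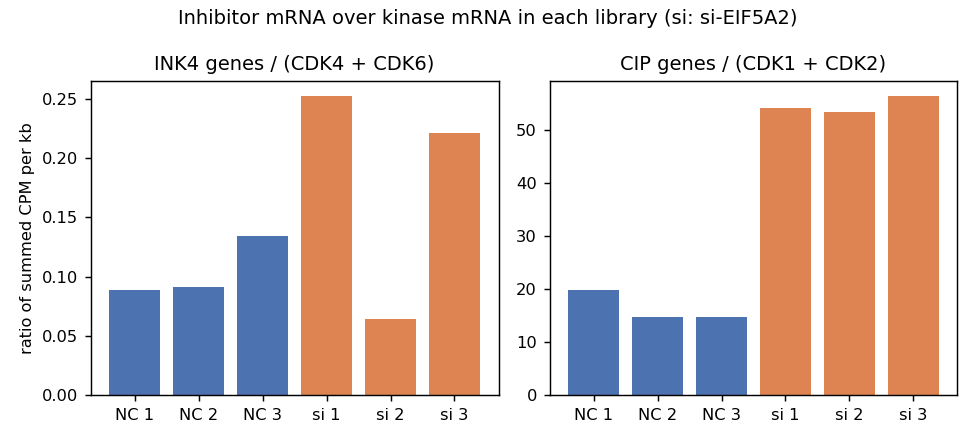
Ratio of summed CPM per kb of INK4 genes to CDK4 plus CDK6 (left) and of CIP genes to CDK1 plus CDK2 (right), 1 bar per library, both axes starting at 0. The CIP ratio is higher in all 3 si-EIF5A2 libraries, whereas the INK4 ratio overlaps through si-EIF5A2 replicate 2.

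Genes listed for the turnover of CIP proteins and of cyclin E were divided. Of 14 tested, 6 (42.9%) were called, 5 downregulated and 1 upregulated, against 24.6% of all genes tested called in either direction. The downregulated ones were CDC20, DTL (the receptor subunit that marks p21 for destruction at PCNA), CKS1B and SKP2, which together recognise p27, and RNF123 of the KPC ligase. CKS1B fell from 116 ± 4.37 to 24.6 ± 4.33 CPM and DTL from 17.8 ± 2.48 to 2.24 ± 0.209 CPM (SD, n = 3 each). FBXW7, which recognises cyclin E, rose from 10.2 ± 1.76 to 18.9 ± 1.18 CPM (SD, n = 3 each). Of the core subunits, CUL1, SKP1, RBX1 and DDB1 had log2 fold changes between -0.02 and 0.12 and CUL4B had 0.17, with none called. CUL4A, the cullin that works with DDB1 and DTL, had 167 ± 12.9 CPM in NC and 246 ± 14.7 CPM after knockdown (SD, n = 3 each). Its log2 fold change of 0.56 had an adjusted p of 0.00139 in edgeR and lay just under the fold limit, which it passed without NC replicate 3 (0.61) or si-EIF5A2 replicate 2 (0.60). SKP2 had an adjusted p of 0.0199 in edgeR, and its NC libraries reached from 11.96 to 23.7 CPM. It was no longer called without si-EIF5A2 replicate 2 or 3 (adjusted p = 0.074 and 0.069) or with a replicate block (adjusted p = 0.0517). RNF123, at -0.587 on the log2 scale, sat at the fold limit and dropped under it with DESeq2 (-0.579), with RLE or no scaling, with the block and in 4 of 6 leave-one-out fits (-0.555 without NC replicate 1, -0.558 without NC replicate 3, and -0.572 and -0.574 without si-EIF5A2 replicates 1 and 3).

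Among 25 factors known to act on transcription of these genes, 23 were tested and 10 (43.5%) called, 4 upregulated and 6 downregulated. Of all genes tested, 24.6% were called. The median log2 fold change of these factors was 0.12 against -0.01 for all genes tested. EGR1, an immediate early factor that can activate CDKN1A, rose from 1.88 ± 0.178 to 50.4 ± 4.81 CPM (SD, n = 3 each). STAT3 and ETS2 rose with log2 fold changes of 1.24 and 1.03. ID1, KLF4 and E2F1 had the largest falls, with log2 fold changes of -3.11, -1.93 and -1.63. MYC, known to repress CDKN1A and CDKN2B, had 15.5, 12.7 and 15.0 CPM in NC and 175, 13.9 and 14.1 CPM after knockdown, a log2 fold change of 2.23 that turned to -0.05 without si-EIF5A2 replicate 1.

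Polycomb genes, known for silencing CDKN2A and CDKN2B, were called in 5 of 17 cases (29.4%), near the 24.6% of all genes tested that were called. RING1, RNF2, EZH2 and PHC1 were downregulated with log2 fold changes between -1.14 and -0.94, and JARID2 rose by 0.83 on the log2 scale. CDKN2A and CDKN2B stayed at or under the detection limit in the same libraries. Each gene from MTAP to DMRTA1 held 8 counts or fewer over the 6 libraries, and a link to the polycomb genes was not tested. Of 13 pocket protein and E2F genes downstream of the kinases, 5 (38.5%) were called, against 24.6% of all genes tested. E2F2, E2F8, E2F1 and RB1 were downregulated, RB1 from 51.1 ± 11.7 to 20.8 ± 3.13 CPM, while E2F7 rose from 77.5 ± 3.79 to 130 ± 9.02 CPM (SD, n = 3 each). E2F2 and E2F8 were low, at 1.46 and 2.31 CPM in NC. The call of E2F2 was lost without any 1 of the 3 NC replicates or si-EIF5A2 replicate 1 (adjusted p up to 0.0771) and with a replicate block (0.0626), and that of E2F8 without any 1 of the 3 NC replicates or si-EIF5A2 replicate 3 (adjusted p up to 0.0776).

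The coding genes CDKN3, CDKN2AIPNL and CDKN2AIP carry CDKN in their symbol without being CIP or INK4 inhibitors. CDKN3, a phosphatase that acts on CDKs, fell from 35.5 ± 2.65 to 6.90 ± 0.375 CPM, and CDKN2AIPNL fell from 67.8 ± 6.41 to 14.5 ± 0.369 CPM (SD, n = 3 each). CDKN2AIP, whose product binds ARF, had 1.59, 2.10 and 14.3 CPM in the NC libraries and 14.004, 13.5 and 13.7 CPM in the knockdown libraries. It was not called (adjusted p = 0.376 in edgeR), and NC replicate 3 lay at the knockdown level. Without that library the log2 fold change was 2.89 and the gene was called.

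The genes next to CDKN2C differed in direction. FAF1, which encodes a factor in apoptosis signaling and starts on the opposite strand 482 bases from CDKN2C, fell from 87.4 ± 8.39 to 44.7 ± 1.59 CPM (SD, n = 3 each; log2 change -0.97). The CDKN2C sequence printed above lies in the gap between these divergent genes. RNF11, 261638 bases downstream, rose from 51.3 ± 7.27 to 77.3 ± 8.31 CPM. CDKN2C had the larger fitted fall of the divergent pair. Next to CDKN2D, AP1M2, which encodes an epithelial sorting adaptor, rose by 0.81 on the log2 scale, while KRI1 at -0.37 was not called. Next to CDKN1A, neither PANDAR, a noncoding RNA at 0.289 CPM in NC, nor CPNE5 at 1.23 CPM was called.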

How the data were processed

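The authors sequenced paired-end mRNA libraries of SKOV3 cells, used StringTie and ballgown to quantify transcripts, and deposited a table of estimated counts, rounded to whole numbers, neither scaled to library size nor divided by length. The submitters' processing notes name Bowtie 0.12.2 and the mouse builds mm8 and mm9, whereas the identifiers are human, so the build and annotation used are not known here. Of 58825 identifiers, 58552 were found in GENCODE release 29, which gave positions and exon lengths. StringTie divides fragments between overlapping transcripts, and strandedness is not given in the sources used here, so counts of overlapping genes are less certain. Each of the 6 columns carries the name of 1 library, and 0 were left over.

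edgeR 4.0.16 (R 4.3.3) was run on the estimated counts, already whole, of all 6 libraries: filterByExpr, TMM, robust quasi-likelihood fits with condition as the only term, and Benjamini-Hochberg adjustment over 16208 genes. The step of the counts is the period with the highest mean cosine over values up to 40. DESeq2 1.42.0 and the alternatives named in the closing section were run too, and the scripts were tested on simulated data. Members and lists were chosen with earlier results of these data known. Named genes are the members, their neighbours, CDKN3, CDKN2AIP, CDKN2AIPNL and genes of the lists. A list gave all its called genes when 6 or fewer, otherwise its 3 largest rises and falls at a mean of at least 10 CPM. The rule for genes with the nearest profile needs a called member with a mean of 10 CPM and gave none. CCNE2, CDK1, CDK2, MYC, genes named as not called, the named markers, and the count of genes low in 1 library were chosen after their values were seen. Results of 1 more gene list and of 1 listed regulator are not reported here.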

Additional observations from a re-analysis of the deposited data

How the results depend on the processing

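CDKN1C and CDKN2C were called under every alternative run: DESeq2, the scalings (RLE, upper quartile, none), the filters (none, or 10 counts in each library), a replicate block, counts divided by their step, both other thresholds, and every leave-one-out fit. Neither CDKN1A, CDKN1B nor CDKN2D was called under any of them. Over the 6 leave-one-out fits, values on the log2 scale lay between -2.25 and -1.97 for CDKN2C, -1.49 and -1.27 for CDKN1C, 0.15 and 0.31 for CDKN1A, -0.11 and -0.01 for CDKN1B, and -1.31 and -0.41 for CDKN2D. Same-numbered NC and si-EIF5A2 libraries did not deviate together (r between -0.02 and 0.01 across genes), and with the replicate number as a block 3731 genes were called, with a log2 fold change of -2.08 for CDKN2C, -1.37 for CDKN1C and -1.25 for CDKN2D. With the threshold of the methods, 2370 genes (14.6% of all genes tested) were called in place of 3992. Among them were 3 of 14 turnover genes and 3 of 17 polycomb genes. At that threshold CCND1, CDK2, E2F7, KRT7, KRT8 and PAX8 were no longer called either. With no limit on the fold change, 16 of 23 transcription regulators and 9 of 17 polycomb genes passed, against 36.9% of all genes tested. Of the 13 listed pocket protein and E2F genes, 3 were called with at least 10 counts in every library. There 3925 of 14118 genes tested were called. With a library left out, 3 to 5 were called (3 without NC replicate 3), beside 3638 to 3907 of all genes tested. Among genes named as not called, leaving out 1 library turned the sign of SKP1 (-0.11 to 0.10), RBX1 (-0.041 to 0.075), DDB1 (-0.091 to 0.073), KRT18 (-0.20 to 0.093) and MYC (-0.053 to 2.71), and without a filter SKP1 was at -0.0081 and RBX1 at -0.0058. ERBB2 was left out of that check. Counting limits CDKN2A and CDKN2B to values below about 3 fragments per library, and 3 libraries a group leave CDKN2D undecided.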

Other observations

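The genes whose 6 log2 CPM values, each taken relative to its own mean, lay nearest to those of the 2 called members were looked up with the limit on the member's mean level dropped, a choice made after the values were seen. For CDKN2C they were POLD1, CDH4 and AKR1C1, with root mean square differences of 0.0993, 0.111 and 0.121 on the log2 scale over the 6 libraries. For CDKN1C they were COQ8B, SLC45A3 and RECQL5, with 0.116, 0.116 and 0.118. These are descriptions among 8844 genes.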
